A study of Mus musculus with 8 samples.

Results

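The genes described here are 52 antiviral interferon-stimulated genes, listed by name, whose level was read on bead arrays of a mouse spleen stromal cell line. Of these, 49 had a probe on the array and 40 passed the filter on dim probes (detection p below 0.05 on at least 4 of 8 arrays), out of 9174 genes with a symbol and 9971 features that were tested in all. *Ddx60*, *Herc6* and *Ifi44* had no probe named in the annotation used here. Another 9 had a probe that did not pass the filter: *Oas1a*, *Mx1*, *Iigp1*, *Ifit1*, *Nmi* and *Xaf1* were detected on 0 arrays, *Ifih1* on 2 leukemic arrays, and *Parp9* and *Sp100* on 1 leukemic array each. The study names *Bst2* and targets of interferon regulatory factors as up-regulated on these same arrays, and the list therefore gives no independent support for a direction.

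The arrays carry total RNA of mSSC-YFP, 1 stromal line (strain C57BL6/N) immortalised from E18.5 embryonic spleen, marked with a yellow fluorescent protein and used at passages 2 to 6. The line was cultured for 40 to 48 h with primary B cells and then separated from them on a cell sorter. In the leukemic group (n = 4 arrays) the B cells came from the spleen of adult, highly leukemic *Eμ-TCL1* mice, which carry a TCL1 transgene driven in B cells and develop a disease resembling chronic lymphocytic leukemia (CLL). In the control group (n = 4 arrays) they were splenic B cells of adult, age-matched control mice, and both groups received 20 B cells per stromal cell according to the labels. Whether replicates were independent cultures, or drew on B cells from different animals, is not stated, and p-values thus cover the variation among these 8 arrays alone.

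Interferons are cytokines that cells release when they sense a virus. Type I interferons bind a receptor that acts through the kinases JAK1 and TYK2 and through the factor ISGF3, which includes STAT2 and IRF9 and binds interferon-stimulated response elements (ISRE) in target promoters, while interferon gamma acts on gamma-activated sites (GAS). Target genes encode sensors of viral nucleic acid, factors that sustain the response, large GTPases, the ubiquitin-like protein ISG15 with its enzymes, and effectors that block viral entry, replication or release.

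Promoter windows from RefSeq (GRCm38.p6, 250 bases before to 50 bases after the start of a gene) were at hand for 39 of the 52 genes. An ISRE core, taken as a pair of GAAA half-sites with any 2 bases between them on either strand, was present in 16 of the 30 tested members with a window (53.3%) and in 3.99% of the 27025 genes in the table. Among the 12 tested members with the largest difference between groups, 5 of 8 with a window held it (62.5%), and 11 of 22 did among the other tested members. By role, it was found in 5 of 6 GTPases, 3 of 5 genes of the ISG15 and ubiquitin pathway, 5 of 11 effectors, 2 of 4 sensors and 1 of 4 transcription factors. A GAS core, TTCNNNGAA on both strands, was present in 9 of 30 tested members (30.0%) and in 9.55% of all genes. A match describes these letters in this window and is not a bound site.

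The promoters printed here are those of 5 members that are described array by array and hold 2 or more ISRE matches upstream of the start, followed by the GAS match of *Irf1*, each from the sense strand with the matching bases in capitals. Positions count from the start of the gene, base -1 being the last before it. *Isg15* lies on the minus strand (chr4:156200830-156200941) and has 3 overlapping matches from -78 to -57. *Bst2* (chr8:71537542-71537647, minus strand) has 2 overlapping matches from -130 to -115, the first of which also overlaps a GAS match that begins at -136. *Gbp3* (chr3:142559954-142560043, plus strand) has 2 from -45 to -30, *Ifit3* (chr19:34583328-34583461, plus strand) has 2 between -156 and -113, and *Irgm1* (chr11:48871421-48871495, minus strand) has 2 from -30 to -15. The GAS match of *Irf1* (chr11:53769879-53769977, plus strand) runs from -90 to -82.
Isg15: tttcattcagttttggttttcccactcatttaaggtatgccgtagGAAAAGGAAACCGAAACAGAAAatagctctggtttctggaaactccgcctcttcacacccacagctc
Bst2: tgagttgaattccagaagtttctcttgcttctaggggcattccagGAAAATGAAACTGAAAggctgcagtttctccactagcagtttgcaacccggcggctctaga
Gbp3: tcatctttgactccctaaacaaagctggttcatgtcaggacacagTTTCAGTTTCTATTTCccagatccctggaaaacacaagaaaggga
Ifit3: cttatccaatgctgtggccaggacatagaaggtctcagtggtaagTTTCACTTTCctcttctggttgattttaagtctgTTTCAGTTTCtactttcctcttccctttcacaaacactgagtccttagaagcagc
Irgm1: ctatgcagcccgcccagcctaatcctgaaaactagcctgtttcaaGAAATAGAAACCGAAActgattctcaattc
Irf1: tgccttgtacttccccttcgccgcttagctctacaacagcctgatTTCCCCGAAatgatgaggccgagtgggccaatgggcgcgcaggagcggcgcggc

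Each array detected 13504 to 13938 of 25697 probes at a median signal of 67.2 to 90.2, and precision is limited by having 4 arrays per group. Leukemic replicate 4 was the least similar array, with correlations across features of 0.955 to 0.970 with the other arrays, against 0.984 to 0.995 among the other 7 (features are not independent replicates). Of markers of fibroblasts and spleen stroma, 12 of 15 with a probe were tested. The brightest were *Dcn*, at a mean log2 level of 14.27 in leukemic and 14.25 in control samples, and *Vim* at 14.09 and 14.23. Their differences, leukemic minus control, ran from -0.53 for *Lum* to 0.44 for *Nkx2-5*, with a median of -0.02 over the 12. *Nkx2-5*, a factor of the embryonic spleen, was dimmer, at 7.16 and 6.72. *Fap* did not pass the filter, and *Tlx1* and *Tcf21* were detected on 0 arrays.

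Stroma cultured with leukemic cells had a higher mean level than stroma cultured with control B cells for 36 of the 40 tested interferon-stimulated genes, where 50.6% of all 9971 features did. The study used a rank product on values normalized with lumi. Here that kind of test was written anew and run on values processed otherwise, so its calls are not a rerun of the study's. Only *Ifi27l2a*, an effector of the interferon-inducible IFI6/IFI27 family, passed it at a q below 0.05. That is 1 of 40 members (2.5%), against 0.311% of all features called higher and 0.0201% called lower. By limma, which weighs each difference against the spread between arrays, 0 members and 0% of the 9971 features passed an adjusted p of 0.05, with 0.639 as the smallest adjusted p. At an unadjusted limma p below 0.05, 10 members were higher (25.0%; 3.9% of all features) and 0 were lower (3.68% of all features). The median log2 difference, leukemic minus control, was 0.31 over the 40 members and 0.0028 over all features. The differences ran from -0.29 for *Irf1* to 1.42 for *Ifi27l2a*.

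**Figure D1:**
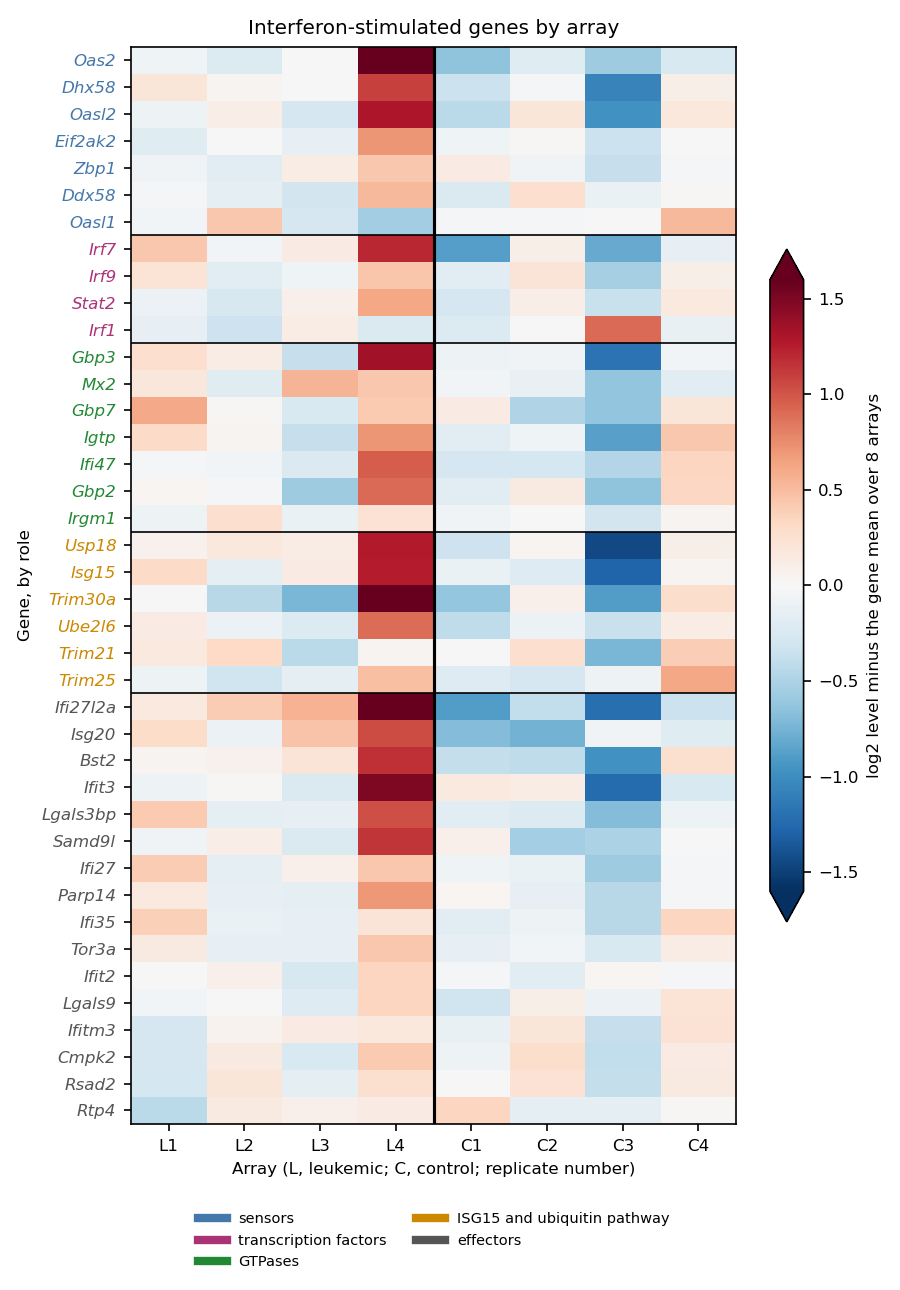
Level of the 40 tested interferon-stimulated genes on each array, as log2 level minus the mean of the gene over 8 arrays (colour), with genes in 5 role groups and the 4 leukemic arrays (L) left of the 4 control arrays (C). Red cells gather in leukemic replicate 4, the highest of 8 arrays for 30 genes, and blue cells in control replicate 3, the lowest for 28.

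The high and low values of the members gathered on 2 arrays. Leukemic replicate 4 held the highest of the 8 values for 30 of 40 members (75.0%), as it did for 25.3% of all features. Control replicate 3 held the lowest for 28 (70.0%), as for 8.43% of all features, and both held for 22 (55.0%), as for 2.51%. With median scaling in place of equal quantiles these counts were 30, 26 and 20, beside 27.0%, 6.23% and 1.95% of all features. The mean level of the 40 members was 9.149, 9.068, 8.995 and 9.83 log2 in leukemic replicates 1 to 4, against 8.89, 9.02, 8.55 and 9.18 in control replicates 1 to 4, so that 1 array lay above all others, 1 below, and the other 6 between 8.89 and 9.18. Groups did not overlap for 1 member (2.5%), again *Ifi27l2a*, where 2.21% of all features were separated upwards and 2.31% downwards. In all 4 same-numbered pairs of arrays, 12 members were higher (30.0%; 9.35% of all features) and 0 were lower (10.1% of all features).

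Without leukemic replicate 4 the median difference of the members was 0.11 and 27 of 40 had a higher leukemic mean (67.5%; 51.5% of all features), and without control replicate 3 it was 0.15, with 30 of 40 (75.0%; 49.8% of all features). Without both arrays, a pair chosen after their values were seen and whose removal lowers a difference by construction, the median was -0.015 and 19 of 40 members were higher (47.5%), beside 51.1% of all features. *Ifi27l2a* passed the rank product in each of these 3 settings, in which 0.0602%, 0.411% and 0.11% of all features were called higher.

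**Figure D2:**
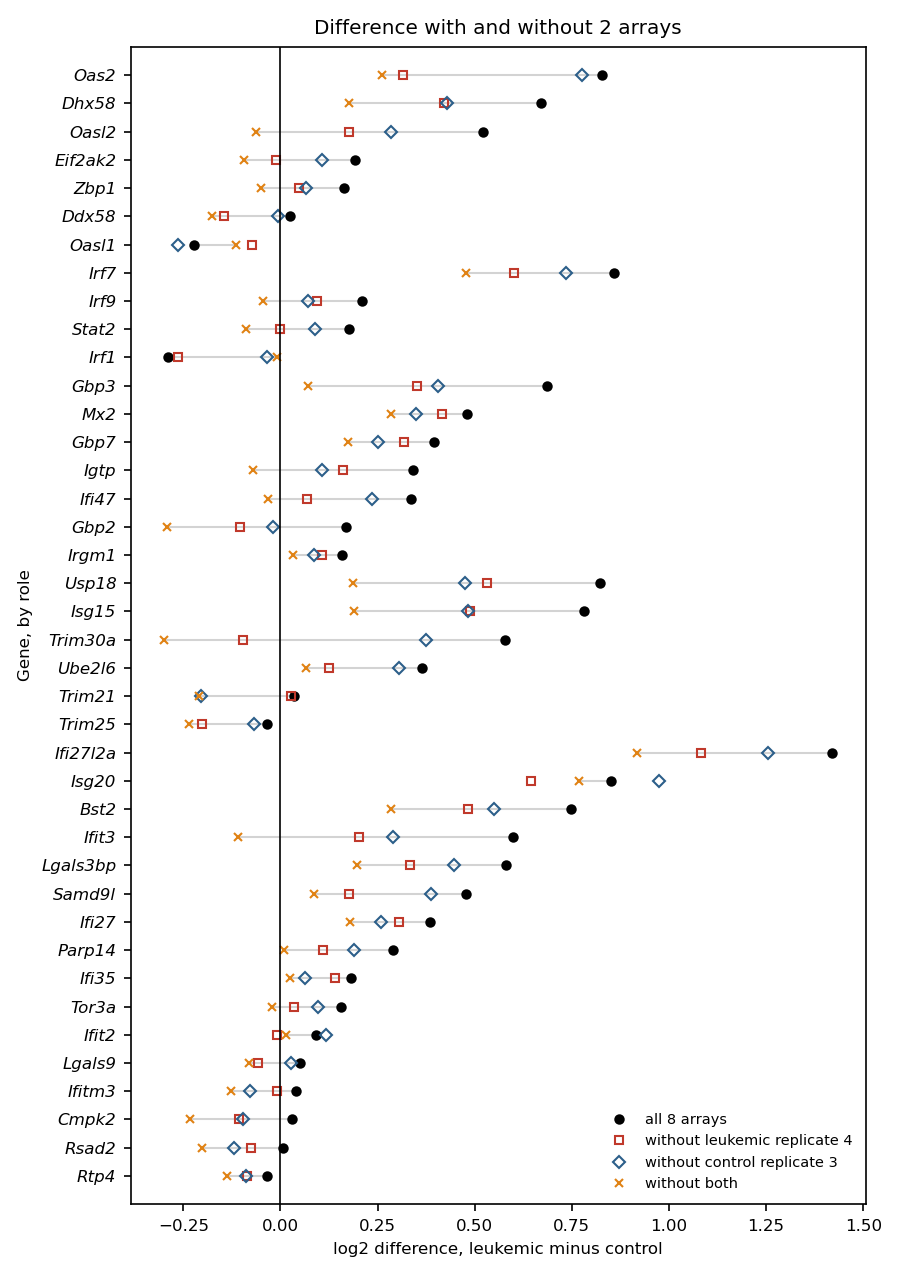
Log2 difference, leukemic minus control (x axis), of each tested member with all 8 arrays (black circles), without leukemic replicate 4 (red squares), without control replicate 3 (blue diamonds) and without both (orange crosses). Crosses lie right of 0 for 19 of 40 members, and *Ifi27l2a* and *Isg20* stay at 0.92 and 0.77.

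Transcripts of other cell types were measured in the sorted samples. B cell markers, of which 6 of 17 with a probe were tested, had a mean log2 level of 6.94, 6.70, 6.45 and 9.08 in leukemic replicates 1 to 4, against 5.82, 5.83, 6.30 and 5.99 in control replicates 1 to 4. *Cd79b*, a chain of the B cell receptor, *Mzb1*, *Fcmr*, *Cd79a* and *Fcrla* passed the rank product. Groups did not overlap for *Cd79b* and *Fcmr*, and overlapped for *Mzb1*, *Cd79a* and *Fcrla*. *Cd79a* was at 9.40 in leukemic replicate 4, against 5.81 to 6.40 in the other leukemic samples. *Ebf1*, also tested, had a lower leukemic mean (-0.17 ± 0.15). The median difference was 1.38 over the 6 tested markers (0.72 without leukemic replicate 4 and control replicate 3). In leukemic replicate 4, 13 B cell markers were detected, against 6 to 9 on the other arrays. *Ms4a1* and *Pax5* were detected on 0 arrays. Of 6 tested pan-leukocyte markers, *Cd52* (1.53 ± 0.48) and *Laptm5* (1.23 ± 0.51) passed the rank product. *Ptprc*, *Lcp1* and *Cd48* of that list were detected on 0 arrays. The tested pan-leukocyte markers had a mean of 9.04 in leukemic replicate 4. It was 7.42 to 7.51 in the other leukemic samples and 6.92 to 7.29 in control samples. Of 4 tested myeloid markers, *Lyz1* and *Lyz2* passed the rank product, while *Cd14* (0.19 ± 0.15) and *Clec4e* (-0.05 ± 0.21) did not. *Adgre1*, *Itgam*, *Fcgr1*, *S100a8* and *S100a9* were detected on 0 arrays. Of markers of plasmacytoid dendritic cells, a main source of type I interferon, 0 of 5 were tested. The array highest in the interferon-stimulated genes was therefore also highest in the mean of B cell markers. Control replicate 3, lowest in the interferon-stimulated genes, had the highest control mean of B cell markers at 6.30. The markers differed on that array. *Mzb1* (7.54), *Cd79b* (6.57) and *Fcrla* (6.22) were the highest of the control samples there. *Fcmr* (5.97) was the lowest of all 8 arrays, *Ebf1* (5.91) the lowest control value, and *Cd79a* (5.59) lay between other control values. In bulk RNA, more cells of a type and more RNA per cell cannot be told apart, and the part of admixed B cells in the members' differences was not tested.

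**Figure D3:**
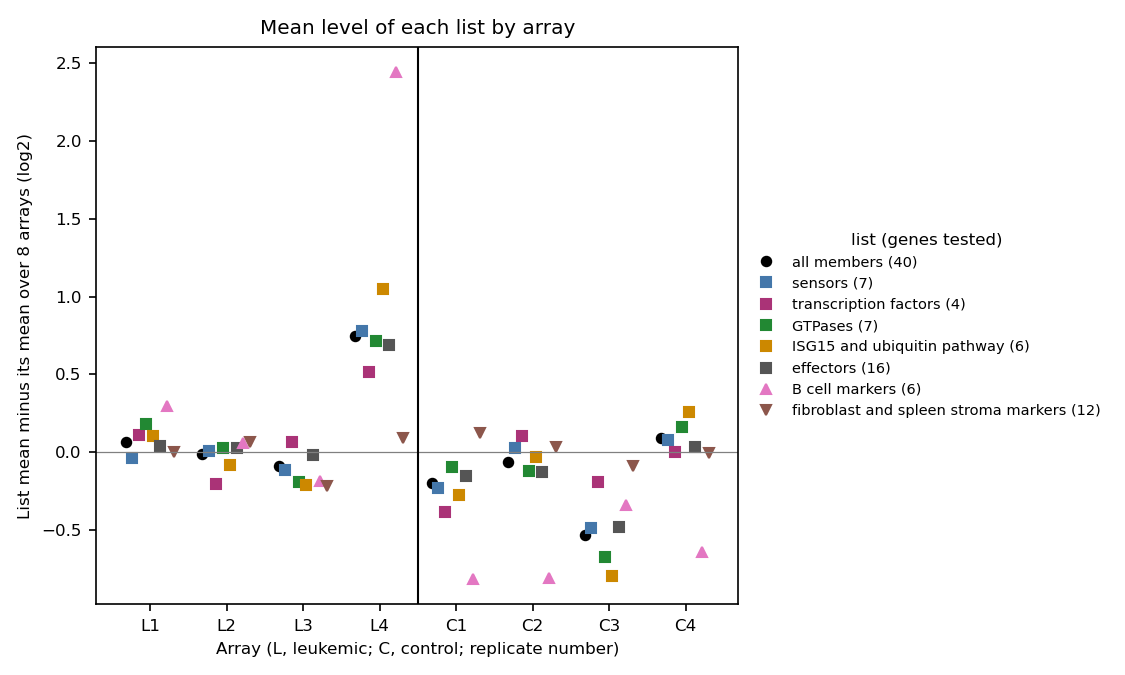
Mean log2 level of each list minus its own mean over 8 arrays (y axis), on the 4 leukemic (L) and the 4 control arrays (C), for all members, their 5 role groups, B cell markers and fibroblast markers, with the number of genes tested in brackets. All role groups lie high in leukemic replicate 4, together with B cell markers. Role groups are lowest in control replicate 3, except transcription factors (mean log2 level 9.04, against 8.85 in control replicate 1). The mean of B cell markers is in control replicate 3 the highest of the 4 control arrays.

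Sensors of viral RNA and DNA and enzymes activated by double-stranded RNA comprised 10 genes, of which 9 had a probe and 7 were tested. A higher leukemic mean was found for 6 of 7, with a median difference of 0.19 (0.05 without leukemic replicate 4, and -0.06 with 2 of 7 higher without control replicate 3 as well), and 0 passed either test. *Oas2*, an oligoadenylate synthetase that activates RNase L, had log2 levels of 5.35, 5.19, 5.40 and 7.36 in leukemic replicates 1 to 4, against 4.77, 5.22, 4.84 and 5.16 in control replicates 1 to 4. Leukemic replicate 4 alone stood far above the rest and the groups overlapped by a single value, at a difference of 0.83 ± 0.41 (SE, n = 4 each, as for every difference below) that was 0.32 without that array. *Oas2* was detected on 4 leukemic and 2 control arrays.

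*Dhx58*, which encodes the RNA helicase LGP2, measured 7.44, 7.29, 7.25 and 8.33 log2 in leukemic samples, against 6.90, 7.21, 6.18 and 7.34 in control samples. It was higher in all 4 pairs, yet 2 leukemic values lay below control replicate 4, and the difference of 0.67 ± 0.30 did not pass the rank product (q = 0.215). It was 0.42 without leukemic replicate 4, 0.43 without control replicate 3 and 0.18 without both. *Eif2ak2*, the kinase PKR that halts translation when it binds double-stranded RNA, was the brightest sensor, with 10.18, 10.37, 10.24 and 11.07 log2 in leukemic samples, against 10.30, 10.39, 10.02 and 10.38 in control samples. Apart from leukemic replicate 4 its values were interleaved, and the difference was 0.19 ± 0.19 with that array and -0.011 without it. The other sensors were *Oasl2* (0.52 ± 0.35), the DNA sensor *Zbp1* (0.16 ± 0.18), *Ddx58*, which encodes RIG-I (0.03 ± 0.19), and *Oasl1* (-0.22 ± 0.23).

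All 4 transcription factors were tested, 3 had a higher leukemic mean, and the median difference was 0.19 (0.05 without leukemic replicate 4, and -0.03 with 1 of 4 higher without control replicate 3 as well). *Irf7*, the factor that amplifies type I interferon production, had log2 levels of 7.17, 6.70, 6.87 and 7.95 in leukemic samples, against 5.86, 6.84, 5.94 and 6.61 in control samples. A single control value exceeded the lowest leukemic value. The difference of 0.86 ± 0.30 lay at the edge of the rank product threshold (q = 0.0514). The q was 0.0286 with no filter on dim probes, 0.605 with the authors' normalized values and 0.262 without leukemic replicate 4. *Irf7* came past the threshold under 4 alternatives and stayed short of it under 14. The difference was 0.48 without leukemic replicate 4 and control replicate 3. *Stat2* (0.18 ± 0.21) and *Irf9* (0.21 ± 0.18), which encode parts of ISGF3, differed by about their standard error.

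*Irf1*, an early target of interferon gamma and the brightest factor, had the lower leukemic mean, with 12.36, 12.15, 12.60 and 12.26 log2 in leukemic samples, against 12.27, 12.49, 13.39 and 12.37 in control samples. Control replicate 3, the lowest array for most members, was here the highest, and the other 7 arrays overlapped. The difference was -0.29 ± 0.22 and -0.036 without control replicate 3, and all 5 probes of the gene lay between -0.41 and -0.20.

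The interferon-inducible GTPases, which include guanylate-binding proteins that attack pathogen vacuoles and immunity-related GTPases, comprised 9 genes with a probe, 7 of them tested. All 7 had a higher leukemic mean, with a median of 0.34 (0.16 without leukemic replicate 4 and 0.03 without control replicate 3 as well), 4 of them in all 4 pairs, and 0 passed either test. *Gbp3* had log2 levels of 9.74, 9.59, 9.10 and 10.81 in leukemic samples, against 9.38, 9.41, 8.28 and 9.42 in control samples. The highest leukemic and the lowest control value stood apart on either side, the others overlapped, and the difference of 0.69 ± 0.35 was 0.07 without these 2 arrays. *Irgm1*, the brightest GTPase gene, measured 13.44, 13.79, 13.41 and 13.75 log2 in leukemic samples, against 13.46, 13.52, 13.22 and 13.56 in control samples, a difference of 0.16 ± 0.12 with overlapping groups, and its 3 probes disagreed in sign (-0.04 to 0.32). The remaining GTPases were *Mx2* (0.48 ± 0.20), *Gbp7* (0.39 ± 0.25), *Igtp* (0.34 ± 0.28), *Ifi47* (0.34 ± 0.26) and *Gbp2* (0.17 ± 0.29), the last of them with probes of opposite sign.

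**Figure D4:**
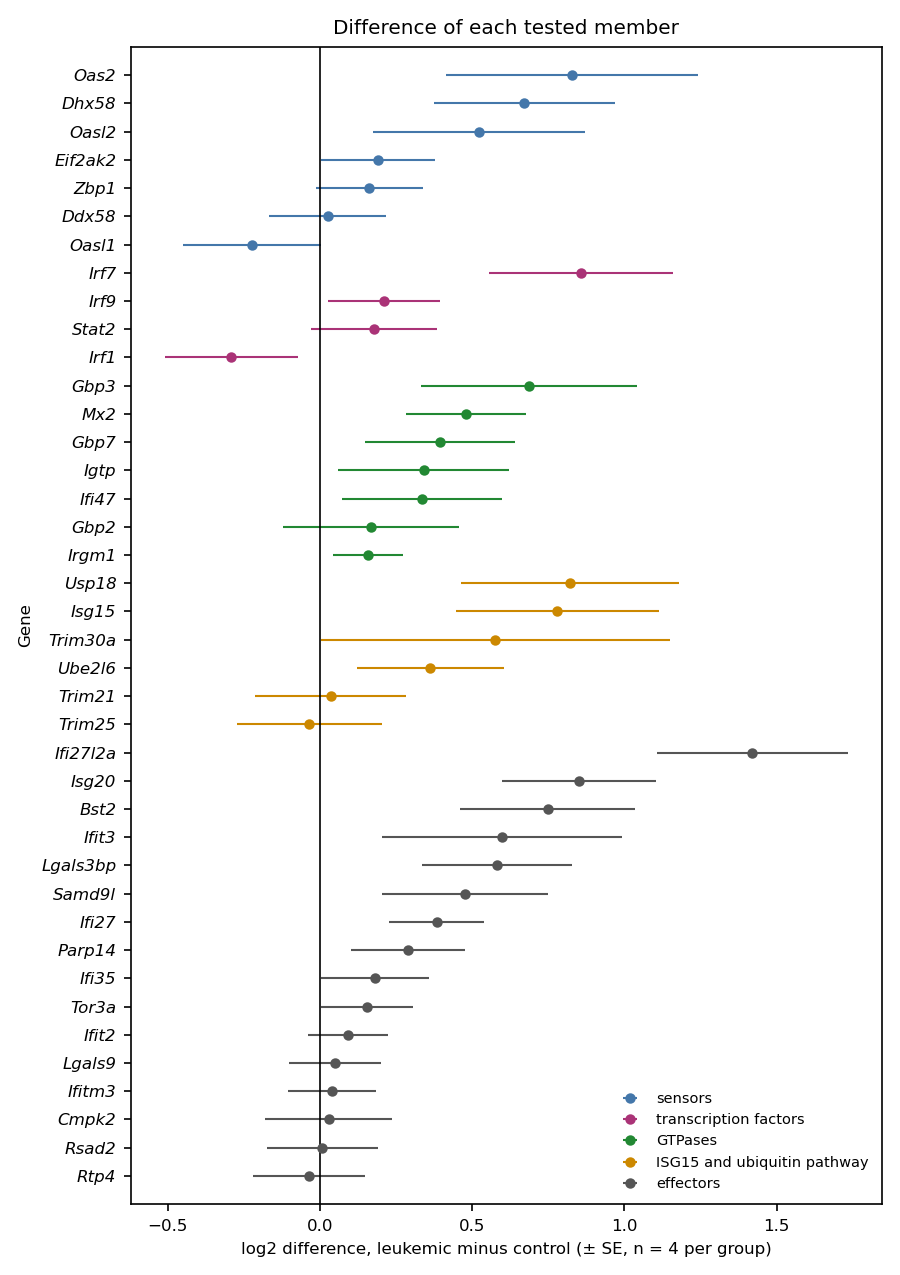
Log2 difference, leukemic minus control (x axis), of each of the 40 tested members as a point with its standard error (bar, n = 4 per group), coloured by role. Points right of 0 are higher in leukemic samples, as 36 are, and *Ifi27l2a* at 1.42 lies farthest from 0.

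ISG15 is a ubiquitin-like protein that is attached to other proteins and removed again by the protease USP18, which also dampens the interferon receptor. Of 7 genes of the ISG15 and ubiquitin pathway, 6 were tested, 5 had a higher leukemic mean, and the median of 0.47 was 0.08 without leukemic replicate 4 and -0.07 without control replicate 3 as well. *Isg15* itself had log2 levels of 10.87, 10.42, 10.69 and 11.82 in leukemic samples, against 10.46, 10.35, 9.28 and 10.60 in control samples. It was higher in all 4 pairs, but leukemic replicate 2 lay below 2 of the control samples, and the difference of 0.78 ± 0.33 (1.72-fold) had a rank product q of 0.156. It was 0.49 without leukemic replicate 4, 0.48 without control replicate 3 and 0.19 without both.

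*Usp18* measured 9.68, 9.78, 9.73 and 10.88 log2 in leukemic samples, against 9.28, 9.65, 8.16 and 9.70 in control samples. The groups overlapped by 1 control value of 9.70, and the difference was 0.82 ± 0.36 (0.70 to 0.98 over its 3 probes), with a q of 0.117. Without leukemic replicate 4 it was 0.53, without control replicate 3 it was 0.48, and without both it was 0.19. *Trim30a*, a ubiquitin ligase of the TRIM family, was dim, at 5.87, 5.42, 5.13 and 8.17 log2 in leukemic samples, against 5.24, 5.94, 4.97 and 6.14 in control samples. Leukemic replicate 4 stood far above the rest, and the difference of 0.58 ± 0.57 was -0.097 without it. *Ube2l6*, the ISG15-conjugating enzyme, differed by 0.36 ± 0.24, while the ligases *Trim21* (0.04 ± 0.25) and *Trim25* (-0.03 ± 0.24) lay near 0.

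Effectors were the largest group, with 21 genes with a probe and 16 tested, of which 15 had a higher leukemic mean and 5 were higher in all 4 pairs, at a median difference of 0.23 (0.12 without leukemic replicate 4 and 0.012 without control replicate 3 as well). *Ifi27l2a* was the only member that passed the rank product with the filter on dim probes. Its log2 level was 10.12, 10.36, 10.51 and 11.68 in leukemic samples, against 9.07, 9.56, 8.76 and 9.61 in control samples. Every leukemic value lay above every control value, and leukemic replicate 4 was the highest. The difference was 1.42 ± 0.31 (2.68-fold), with an estimated rank product q of 0 over 100 permutations, a limma adjusted p of 0.639 and an exact permutation p of 0.0286, the smallest that 4 against 4 arrays can give (2-sided). It was 1.08 without leukemic replicate 4, 1.26 without control replicate 3 and 0.92 without both (q = 0.0333).

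*Isg20*, an exonuclease that degrades viral RNA, had log2 levels of 7.55, 7.16, 7.71 and 8.30 in leukemic samples, against 6.56, 6.49, 7.20 and 7.06 in control samples. Control replicate 3 was the highest of its group, so that the order of arrays differed from that of most members, and only leukemic replicate 2 lay below a control value. The difference was 0.85 ± 0.25 and 0.77 without both arrays, and it missed the rank product threshold in the full set (q = 0.0655). The q was 0.0314 with no filter on dim probes, 0.419 with the authors' normalized values and 0.280 without leukemic replicate 4. *Isg20* came past the threshold under 3 alternatives and stayed short of it under 15.

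*Bst2*, which encodes tetherin, a membrane protein that holds budding virus on the cell surface, measured 10.34, 10.36, 10.50 and 11.46 log2 in leukemic samples, against 9.91, 9.89, 9.32 and 10.55 in control samples. It was higher in all 4 pairs, and 3 leukemic values lay below control replicate 4. The difference of 0.75 ± 0.29 (1.68-fold) had a rank product q of 0.149 and a limma adjusted p of 0.639, and it was 0.48 without leukemic replicate 4 and 0.28 without both arrays.

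*Ifit3*, a protein of the family that recognises foreign RNA ends, had log2 levels of 11.16, 11.27, 11.01 and 12.74 in leukemic samples, against 11.40, 11.37, 10.01 and 11.00 in control samples. The 3 lower leukemic values lay within the range of the control samples, and the difference of 0.60 ± 0.39 was -0.11 without both arrays. Its 3 probes gave 0.20 to 0.60. *Lgals3bp*, a secreted glycoprotein, measured 12.27, 11.70, 11.72 and 12.89 log2 in leukemic samples, against 11.69, 11.64, 11.16 and 11.77 in control samples, with overlap at 11.77 and a difference of 0.58 ± 0.25. It was 0.33 without leukemic replicate 4 and 0.20 without both arrays.

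*Ifitm3*, which blocks the fusion of viruses with endosomal membranes, was the brightest of all members, at 14.05, 14.38, 14.45 and 14.49 log2 in leukemic samples, against 14.20, 14.52, 13.95 and 14.55 in control samples. The groups overlapped almost fully, with a difference of 0.04 ± 0.14. The other effectors lay between -0.03 and 0.48, namely *Samd9l* (0.48 ± 0.27), *Ifi27* (0.38 ± 0.16), *Parp14* (0.29 ± 0.19), *Ifi35* (0.18 ± 0.18), *Tor3a* (0.15 ± 0.15), *Ifit2* (0.09 ± 0.13), *Lgals9* (0.05 ± 0.15), *Cmpk2* (0.03 ± 0.21), *Rsad2*, which encodes viperin (0.01 ± 0.18), and *Rtp4* (-0.03 ± 0.18). Several probes were kept for 15 members, and their differences had opposite signs in 4, namely *Gbp2*, *Irgm1*, *Trim21* and *Tor3a*.

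**Figure D5:**
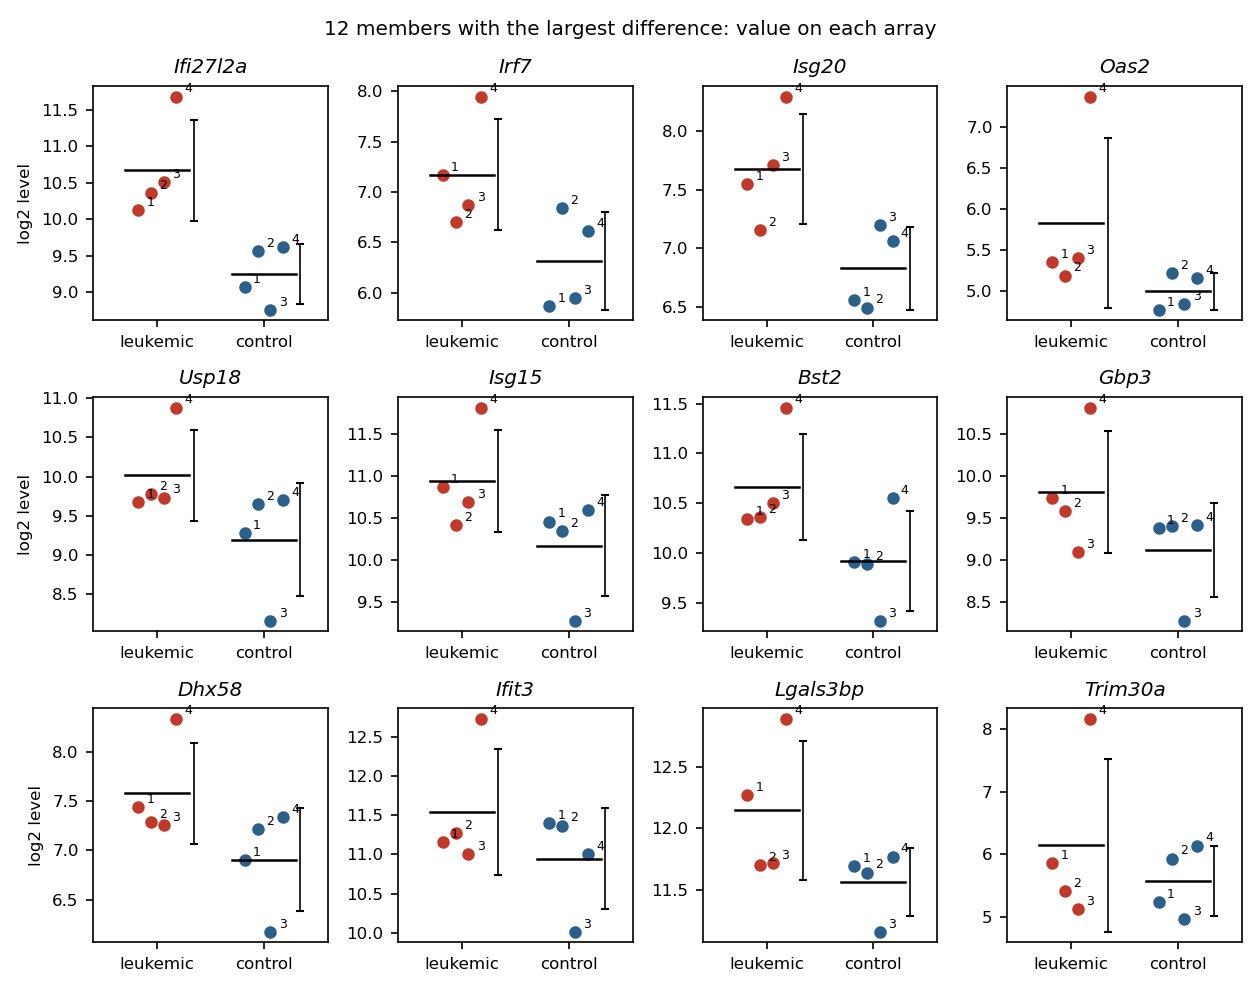
Log2 level (y axis, own scale in each panel) of the 12 members with the largest absolute difference, on the 4 leukemic (red) and 4 control arrays (blue), numbered by replicate, with the mean (line) and the SD (bar). Leukemic replicate 4 is the highest point in every panel, and only *Ifi27l2a* has groups that do not overlap.

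Of the 40 tested members, 37 were detected on all 8 arrays, and *Oas2*, *Trim30a* and *Rtp4* on fewer. The added offset makes this scale understate the differences of such dim genes.

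Genes upstream of the response were read from lists of the same pathway, and 0 of them passed either test. Interferon genes themselves were dim, with 4 of 14 with a probe tested (median 0.04, *Ifne* -0.18 and *Ifna6* 0.12 at the extremes), and *Ifnb1* and *Ifng* were detected on 0 arrays. Among 8 tested receptors and kinases the median was 0.21, and 0.01 without leukemic replicate 4. *Il10rb*, a chain of the interferon lambda receptor, had log2 levels of 8.52, 8.54, 8.62 and 9.90 in leukemic samples, against 7.99, 7.94, 8.36 and 8.76 in control samples (0.63 ± 0.31, and 0.30 without leukemic replicate 4), and its partner *Ifnlr1* differed by 0.51 ± 0.21, both higher in all 4 pairs. The others were *Ifnar2* (0.32 ± 0.22, and 0.08 without leukemic replicate 4), *Ifngr2* (0.30 ± 0.18), *Jak1* (0.12 ± 0.24), *Ifngr1* (-0.02 ± 0.17), *Tyk2* (-0.07 ± 0.12) and *Jak2* (-0.17 ± 0.14). *Ifnar1* was detected on 0 arrays. Of 10 tested transducers and factors, 7 had a higher leukemic mean, with the adaptor *Myd88* at 0.23 ± 0.10 and the DNA sensor *Cgas* (listed as *Mb21d1*) at -0.28 ± 0.18, and of 7 inhibitors 6 did, with *Ptpn6* at 0.45 ± 0.19 and *Socs3* at 0.44 ± 0.36 (0.08 without leukemic replicate 4).

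A further 25 interferon-stimulated genes outside the list were tested, of which 22 had a higher leukemic mean, 10 in all 4 pairs, at a median of 0.23. Without leukemic replicate 4 the median was 0.17 with 17 of 25 higher, and without control replicate 3 as well it was 0.014 with 14 of 25 higher. The largest differences were those of *Tgtp1* and *Tgtp2*, read from 1 probe (0.68 ± 0.38), and *Casp4* (0.62 ± 0.37), at 0.29 and 0.18 without leukemic replicate 4. Groups did not overlap for 4 of them, against 1 of the 40 members and 2.21% of all features, namely *Trex1* (0.54 ± 0.15), *Uba7*, the ISG15-activating enzyme (0.48 ± 0.22, and 0.24 without leukemic replicate 4), *Slfn2* (0.44 ± 0.16) and *Helz2* (0.33 ± 0.14), which are named because their values were seen. *Trex1*, an exonuclease that clears cytosolic DNA, had log2 levels of 9.14, 8.71, 9.16 and 9.11 in leukemic samples, against 8.53, 8.20, 8.61 and 8.64 in control samples, so neither leukemic replicate 4 nor control replicate 3 was at the extreme, and it differed by 0.55 without both.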

How the data were processed

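Illumina mouse bead arrays were read for 8 samples, 4 leukemic and 4 control, all on 1 chip. The deposited table holds the mean intensity per probe on a linear scale, not normalized between arrays, and, for each probe and array, the scanner's detection p-value relative to negative control beads. The authors also deposited a matrix normalized with lumi, with equal quantiles and a median of 7.72 in every column, whose values run like log2 but whose transformation is not given in the sources used here. Its columns were checked against the intensities of the same arrays (correlation of deviations from probe means 0.839 to 0.881, against at most 0.331 between different arrays).

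Intensities were corrected with neqc of limma 3.58.1 in R 4.3.3 (background from the detection p-values, offset 16, quantile normalization, log2). Probes with a detection p below 0.05 on at least 4 arrays were kept (13732 of 25697). Before this filter 1719 probes were unnamed, and those of them that passed it stayed as own features. The kept probe with the highest mean stood for each symbol. Leukemic and control arrays were compared with a 2-class unpaired rank product, as the study did, here in an implementation written anew (16 array pairs, 100 permutations within arrays, q below 0.05), and with limma with a trend (Benjamini-Hochberg over 9971 features), the source of differences and standard errors. Both were tested on simulated data with independent noise of equal variance for every feature and array. Those data held no array that stands apart, as leukemic replicate 4 does, and so do not show how the tests behave on these arrays. Alternatives changed the background correction, offset, scaling, filter, probe choice, test and arrays.

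The members, role groups and other lists were chosen with earlier results of these data known. Values on every array are given for the 12 members with the largest absolute difference, for *Bst2* and for the brightest member of each role group. In the lists beside them, genes past a test, the 2 with the largest difference and all receptors and kinases are named. Motifs were searched in RefSeq promoter windows by gene symbol. Probe specificity between related genes was not tested.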

Additional observations from a re-analysis of the deposited data

Results flagged for a closer look

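In 80 groups of 4 arrays (40 tested members in 2 groups), 1 array lay apart from its other 3 in 9, the gap to the nearest of the others divided by the range of the group being the measure. Chance gives about 1 in 20 such groups, and members of 1 array are not independent. In 5 of the 9 the array was leukemic replicate 4 as the highest of its group, for *Usp18* (0.915), *Oas2* (0.9), *Bst2* (0.857), *Ifit3* (0.848) and *Ifi47* (0.833). In 2 it was control replicate 3 as the lowest, for *Gbp3* (0.97) and *Ifi27* (0.863). The others were *Oasl1*, highest in control replicate 4 (0.95), and *Rtp4*, lowest in leukemic replicate 1 (0.875).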

How the results depend on the processing

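The rank product called 33 features with all 8 arrays, against 20 with no background correction, 15 with the authors' normalized values, 64 with no filter on dim probes, 61 with the replicate number as a block, 11 without leukemic replicate 4 and control replicate 3, and 6 to 43 when 1 array was left out (lowest without leukemic replicate 4). In its place, limma called 0 under every alternative run. Members called numbered 1, against 3 with no filter, 2 with probes detected on all 8 arrays, 3 with the replicate block, 0 by limma and 1 to 2 with 1 array left out. *Ifi27l2a* was called under every rank product alternative, and *Irf7* and *Isg20* were the genes that joined it. With the replicate block their q was 0.0124 and 0.0239. Deviations of same-numbered arrays correlated at 0.251, 0.301, 0.194 and 0.031, and all arrays but leukemic replicate 4 and control replicate 4 correlated best with their own number, while the labels tie nothing to it. Members with groups that do not overlap numbered 1 to 8 with 1 array left out (8 without leukemic replicate 2, 6 without control replicate 4). Without both arrays they numbered 2. Members with the same direction in all pairs numbered 13 to 24, and 20 without both (14 higher and 6 lower). Fewer arrays make both separation and a shared direction easier for any feature. The shares of all features in these settings are not given here, so these counts show no gain in separation. The median of the members was -0.015 without both arrays, that of the ISG15 and ubiquitin pathway -0.072 and that of the effectors 0.012. With 1 array left out these were 0.11 to 0.38, 0.076 to 0.68 and 0.12 to 0.33, and the first and second were 0.17 and 0.16 with the authors' values and 0.12 (30 of 40 higher) and 0.094 with array weights in limma. Of 286 values of the 16 members described by array, 270 kept their direction and side of the threshold, 7 came past it and 9 changed sign. The changes of sign were *Ifit3* -0.11, *Trim30a* -0.30, *Eif2ak2* -0.094 and *Ifitm3* -0.13 without both arrays, *Trim30a* -0.097, *Eif2ak2* -0.011 and *Ifitm3* -0.0091 without leukemic replicate 4, and *Ifitm3* -0.079 without control replicate 3 and -0.0040 with median scaling, under which the median over all features was 0.054, against 0.0028. With 1 array left out these 4 genes ranged from 0.20 to 0.78 (*Ifit3*), -0.097 to 0.91 (*Trim30a*), -0.011 to 0.29 (*Eif2ak2*) and -0.079 to 0.14 (*Ifitm3*). The causes were not tested. Dim genes near the background, such as *Oas2*, *Rtp4* and *Trim30a*, limit what these arrays resolve.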
